A study of Homo sapiens with 17 samples.

Results

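The minor spliceosome snRNA genes are RNU11, RNU12, RNU4ATAC and RNU6ATAC, chosen by gene name as the rows of the U11, U12, U4atac and U6atac small nuclear RNAs. They are 4 of the 14538 genes in the deposited tables, which hold 110 rows of the type snRNA. RNA levels come from stranded sequencing of ribosomal RNA-depleted total RNA of HEK293T, a line derived from human embryonic kidney, in 17 libraries. INTS1-AID cells, whose genotype is given as homozygous miniAID, carry on INTS1 a degron that auxin uses to direct the protein to degradation. They were compared with 500 µM auxin (3 libraries) and without it (2 libraries) at 4 h, and with auxin (3) and without it (3) at 12 h. Untreated INTS1-AID cells (3) were also compared with untreated Parental cells (3), which have no listed genotype. The labels do not say whether the tagged line is 1 clone, whether replicates are separate cultures, or which of the 2 library kits made which library, so the spread on which p-values rest may be technical. The samples include no auxin-treated Parental cells, so an effect of auxin itself and one of INTS1 loss cannot be told apart. A further pair of comparisons in the deposited table, headed TTSeq (sequencing of newly made RNA) for INTS1 and for INTS8, both at 4 h, rests on libraries outside these 17.

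The minor spliceosome removes a rare class of introns, the U12-type introns, from a small set of genes. U11 recognises the 5' splice site and U12 the branch site of such introns, and together they form 1 particle, the U11/U12 di-snRNP. U4atac escorts U6atac into the spliceosome as a paired duplex and is released when U6atac takes over the 5' splice site and forms the catalytic centre with U12. RNU11, RNU12 and RNU4ATAC are transcribed by RNA polymerase II (Pol II), and the 3' ends of such snRNAs are formed by Integrator, the complex of which INTS1 is a scaffold subunit. RNU6ATAC is transcribed by RNA polymerase III (Pol III), which stops at a run of T on its own, so its 3' end is not an Integrator product. The read counts cover the gene itself and do not separate mature snRNA from longer unprocessed transcripts.

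The sequences, printed 5' to 3' as DNA letters from GENCODE v29 transcripts, show letters by which the 4 RNAs differ, among them the run of T at the end of the Pol III transcript. The 3' box that guides Integrator lies downstream of the Pol II transcripts and was not read.
RNU11: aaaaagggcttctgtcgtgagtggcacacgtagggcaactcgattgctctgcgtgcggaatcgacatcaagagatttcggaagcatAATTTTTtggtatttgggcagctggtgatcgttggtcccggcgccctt
RNU12: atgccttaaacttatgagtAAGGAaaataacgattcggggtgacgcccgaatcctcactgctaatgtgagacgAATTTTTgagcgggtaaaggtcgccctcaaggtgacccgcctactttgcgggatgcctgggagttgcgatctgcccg
RNU4ATAC: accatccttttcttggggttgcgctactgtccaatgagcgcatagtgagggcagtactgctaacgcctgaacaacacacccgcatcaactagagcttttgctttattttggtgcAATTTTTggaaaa
RNU6ATAC: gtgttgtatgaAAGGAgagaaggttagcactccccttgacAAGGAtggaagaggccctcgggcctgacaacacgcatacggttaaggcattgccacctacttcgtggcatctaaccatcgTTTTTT
Capitals mark, in the 3 Pol II snRNAs, the letters AATTTTT, and elsewhere AAGGA and the closing run of T of RNU6ATAC.
The first of these motifs lies within the stretch that binds the Sm protein ring of Pol II snRNAs. It starts at base 87 of RNU11, base 74 of RNU12 and base 115 of RNU4ATAC, counted from the 5' end, and is not found in RNU6ATAC. Only the RNA strand was searched, and 7.23% of 1576 snRNA transcripts of 100 to 200 bases in GENCODE hold it. The motif AAGGA can pair with letters that the 5' splice site and the branch site of U12-type introns share. It starts at base 20 of RNU12 and at bases 12 and 41 of RNU6ATAC, and 48.7% of those snRNA transcripts hold it. A run of 6 T, written TTTTTT, is held by 5.77% of them. It starts at base 121 of RNU6ATAC, and it also occurs in RNU11, from base 89, where it overlaps the first motif. The longest uninterrupted complement between U4atac and U6atac is 8 bases long and joins bases 2 to 9 of RNU4ATAC to bases 41 to 48 of RNU6ATAC, where the second AAGGA lies. In global alignments the 4 RNAs share between 46.9% and 49.04% of aligned positions, so reads of 1 member are not those of another.

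The deposited tables place RNU11 at chr1:28648600-28648733 on the plus strand (134 bases) and RNU12 at chr22:42615244-42615393 on the plus strand (150 bases). RNU4ATAC lies at chr2:121530880-121531009 on the plus strand (130 bases), within the CLASP1 gene of the opposite strand, and RNU6ATAC at chr9:134164439-134164564 on the minus strand (126 bases). The builds named in the submitters' processing notes are hg38 and dm6. GENCODE v29 gives the same positions for RNU11, RNU12 and RNU6ATAC and a 127-base RNU4ATAC. It also lists same-strand long noncoding RNAs over 3 of them, AL360012.1 over RNU11, Z93241.1 over RNU12 and AC012447.1 around RNU4ATAC, none of which is a row of the tables. Of the 50-base windows of RNU11, 82 of 85 also occur in AL360012.1, and all 101 of RNU12 occur in Z93241.1. For RNU6ATAC, 34 of 77 windows occur in 3 of its 41 named pseudogene copies, and for RNU4ATAC 0 of 78 occur in another transcript. The sources used here do not say how reads shared with such entries were counted, so the levels of RNU11, RNU12 and RNU6ATAC are uncertain to that extent.

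Facts of the whole data set that touch these genes are few. The 6 untreated libraries held between 26294938 and 39321998 reads in genes, of which the members took 28 to 909 reads each. INTS1 mRNA had 3720 to 4143 normalized counts in untreated INTS1-AID and 4019 to 7384 in Parental libraries, and says nothing of the protein, on which auxin acts. Of the genes checked for the line, SOX2, NEFM and NES had between 166.5 and 896 normalized counts, and PTPRC, CD3E, COL1A1 and ALB are not listed. Values are averages over many cells, so the share of cells and the amount per cell cannot be told apart.

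After 12 h of auxin all 4 RNAs were higher, the Pol II transcripts by 3.13-fold to 4.08-fold and RNU6ATAC by 2.36-fold per the authors' deposited table. The rise was not particular to them: of other snRNA rows 38 of 89 were called higher and 0 lower, with a median log2 change of 1.14. RNU12 had the largest fold at 12 h, and after 4 h the 3 Pol II RNAs were already higher while RNU6ATAC did not pass the test. In the comparisons of the 4 h and 12 h series no value per library was used. A library low or high for snRNA as a class, as Parental library 3 was among the untreated ones, could therefore not be seen. Such a difference between libraries and an effect of auxin cannot be told apart here. The group means below are those that the authors' mean and fold change imply, and they can be set side by side only within a time, since the times were normalized apart. The direction at 12 h, with auxin over without it, rests on its correlation with 4 h across genes, since the deposited columns do not settle it. Ranks, percentiles and the 12 h minus 4 h difference rest on it too: with the ratio turned, the 4 log2 changes at 12 h would have the same size and the opposite sign.

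U11 RNA, the 5' splice site partner, averaged a normalized count of 827 with auxin and 624 without it at 4 h, as implied by the authors' deposited table. RNU11 rose by 0.41 on the log2 scale (95% interval 0.22 to 0.60, DESeq2 adjusted p = 0.000138 per the authors' deposited table). At 12 h it averaged 1208 with auxin and 386 without it, a log2 change of 1.65 (1.35 to 1.94, DESeq2 adjusted p = 7.57e-27 per the authors' deposited table). RNU11 thus ranked 2898 of 14479 genes by log2 change at 4 h and 660 of 14485 at 12 h.

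U12 RNA, the branch site partner, averaged 692 with auxin and 452 without it at 4 h per the authors' deposited table, a log2 change of 0.61 (0.20 to 1.028, DESeq2 adjusted p = 0.0121). For RNU12 at 12 h the means were 785 with auxin and 193 without it per the authors' deposited table, a log2 change of 2.03 (1.77 to 2.28, DESeq2 adjusted p = 1.20e-52). It lay above 97.02% of all genes at 12 h, and above 85.7% at 4 h.

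U4atac RNA, the chaperone of U6atac, averaged 235 with auxin and 134 without it at 4 h per the authors' deposited table. RNU4ATAC had the largest log2 change of the 4 members at that time, 0.81 (0.47 to 1.15, DESeq2 adjusted p = 1.82e-05 per the authors' deposited table). After 12 h it averaged 416 with auxin and 109.9 without it, a log2 change of 1.92 (1.57 to 2.27, DESeq2 adjusted p = 6.21e-25 per the authors' deposited table).

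U6atac RNA, the catalytic partner and the Pol III transcript, averaged 86.1 with auxin and 73.3 without it at 4 h, a log2 change of 0.23 that did not pass the test (-0.24 to 0.71, DESeq2 adjusted p = 0.490 per the authors' deposited table). At 12 h RNU6ATAC averaged 59.02 with auxin and 24.98 without it, and rose by 1.24 on the log2 scale (0.63 to 1.85, DESeq2 adjusted p = 0.000260 per the authors' deposited table). Its interval at 12 h overlaps those of RNU11, RNU12 and RNU4ATAC, and the difference between members within a comparison was not tested.

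**Figure D1:**
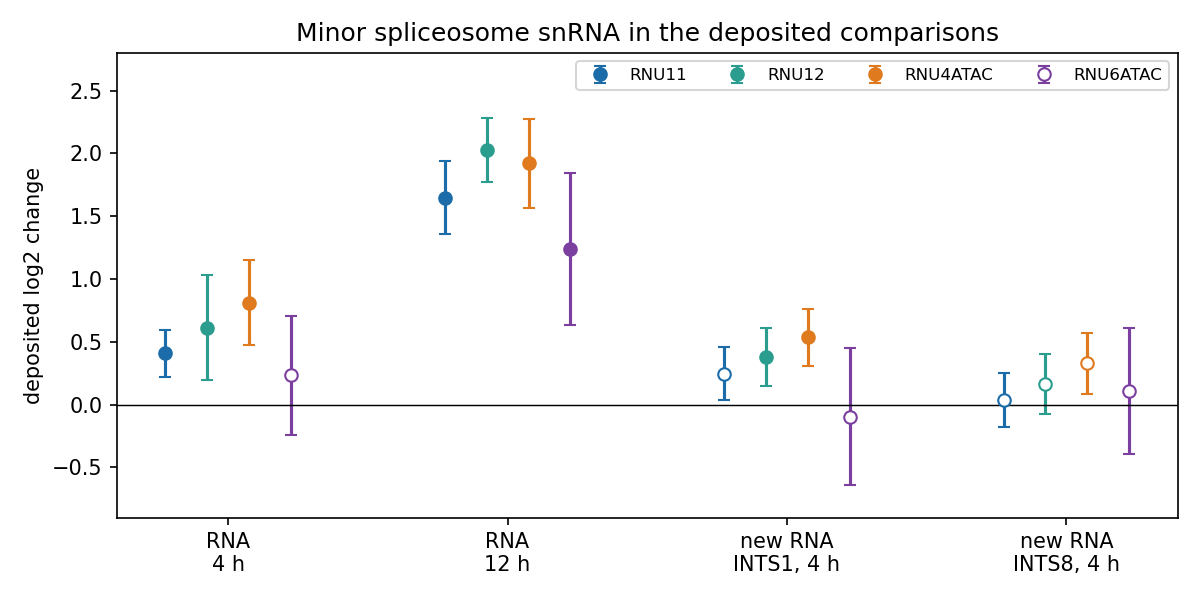
Deposited log2 changes of the 4 snRNA genes (vertical axis) in the 4 comparisons (horizontal axis), with 95% intervals from the standard errors that the deposited p-values imply. Filled points passed an adjusted p of 0.05; all 4 do so for RNA at 12 h, 3 for RNA at 4 h, 2 for new RNA with INTS1 and 0 for new RNA with INTS8.

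Read against all genes, 3 of the 4 members were called higher at 4 h and 4 of 4 at 12 h, where the shares of all genes called higher were 19.2% and 21.9%, and of those called lower 19.2% and 22.3%. When a log2 size of 1 or more was required as well, 0 members were called at 4 h and 4 at 12 h, against 5.32% and 7.52% of all genes called higher by that rule. The members were named without use of these values, but with results of the series known.

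The effect of auxin was larger at 12 h than at 4 h for the Pol II transcripts. The log2 change differed by 1.24 for RNU11 (95% interval 0.89 to 1.59, Wald adjusted p = 4.33e-10), by 1.41 for RNU12 (0.93 to 1.90, Wald adjusted p = 7.35e-07) and by 1.11 for RNU4ATAC (0.62 to 1.60, Wald adjusted p = 0.000235). For RNU6ATAC the difference was 1.008 (0.24 to 1.78) and did not pass (Wald adjusted p = 0.0630 over 14460 genes). Of all genes, 6.33% had a higher log2 change at 12 h by this test and 8.55% a lower one. Each time has its own library series, so time and series cannot be told apart.

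Levels were also set per kb of transcript, and each group mean was divided by that of RNU6ATAC in the same group. The scaling of a library cancels in a ratio taken within that library, but need not cancel in these ratios of group means. At 12 h the RNU12 level per kb was 11.2 times that of RNU6ATAC with auxin and 6.48 times without it. For RNU4ATAC that ratio was 6.83 with auxin and 4.26 without it, and for RNU11 it was 19.2 with auxin and 14.5 without it. At 4 h the ratio of RNU4ATAC was 2.65 with auxin and 1.78 without it, that of RNU12 6.75 and 5.18, and that of RNU11 9.03 and 8.004, each with auxin first. All 6 ratios were higher with auxin. This restates the fold changes above, of which that of RNU6ATAC was the smallest at both times, and is no separate result. The ratios come from group means, have no spread, and were not tested.

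Of the other snRNA rows, more were called higher than lower at 12 h. At that time 38 of 89 were called higher and 0 lower per the authors' deposited table (39 and 0 at an unadjusted p under 0.05), with a median log2 change of 1.14 beside 0.01 for all genes, of which 21.9% were called higher. At 4 h, 18 of 90 were called higher and 2 lower, near the 19.2% of all genes called higher, with a median of 0.34 beside 0.0048. RNU12 took rank 18, RNU4ATAC rank 24, RNU11 rank 31 and RNU6ATAC rank 46 of the 93 snRNA rows at 12 h. At 4 h RNU4ATAC took rank 22, RNU12 rank 31, RNU11 rank 43 and RNU6ATAC rank 57 of 94 snRNA rows, so RNU11 stood near the middle at that time.

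The counts by snRNA family cover only rows with a deposited mean of at least 10. The counts and ranks over snRNA rows above had no such filter, so the 2 sets are not alike. The U1 rows with their variants, counterparts of U11 in the major spliceosome, had 21 of 24 higher at 12 h and 12 of 24 at 4 h per the authors' deposited table, with median log2 changes of 1.59 and 0.41. The U2 rows, counterparts of U12, had 2 of 7 higher and 0 lower at 12 h, and 1 higher and 2 lower at 4 h, with medians of 0.36 and -0.02. The U5 genes, whose RNA serves both spliceosomes, had 7 of 7 rows higher at 12 h and 5 of 7 at 4 h per the authors' deposited table, with median log2 changes of 2.01 and 0.43. For U6, the Pol III counterpart of U6atac in the major spliceosome, 1 of 5 rows was higher at 12 h and 0 at 4 h (2 and 0 at an unadjusted p under 0.05), with medians of 1.12 and 0.08 per the authors' deposited table. The U4 rows, counterparts of U4atac, had 2 of 2 higher at 12 h and 0 of 2 at 4 h (0 also at an unadjusted p under 0.05), with log2 changes between 0.62 and 1.07 at 12 h. RN7SK, the other Pol III small RNA of the list written for this comparison that is a row of the tables, rose by 0.40 on the log2 scale at 12 h (DESeq2 adjusted p = 0.00347 per the authors' deposited table). Its log2 change at 4 h was 0.08 (DESeq2 adjusted p = 0.108). Copies of U1, U2, U4, U5 and U6 genes share reads, so their single values are uncertain.

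**Figure D2:**
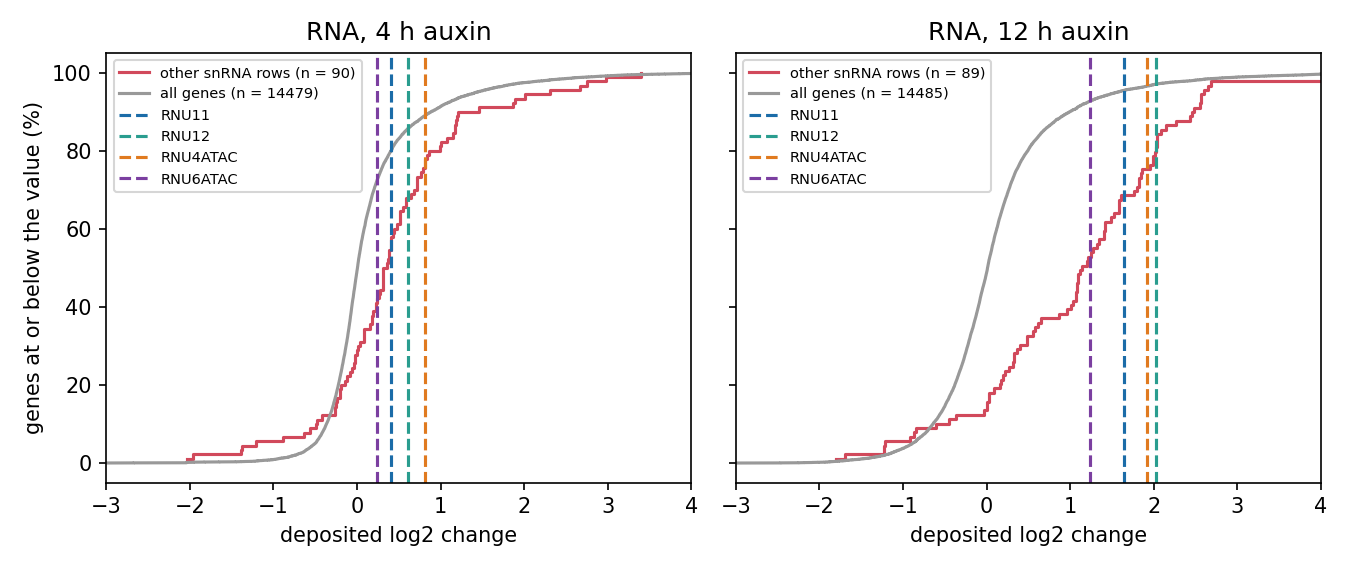
Cumulative share of genes (vertical axis, %) at or below each deposited log2 change (horizontal axis) for RNA at 4 h (left) and 12 h (right), for other snRNA rows and for all genes, with the 4 members as dashed lines. At 12 h the members lie between 1.24 and 2.03, above 92.7% to 97.02% of all genes.

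Newly made RNA at 4 h was higher for 2 of the 4 genes in the INTS1 comparison, in the direction of the deposited ratio. In the INTS1 comparison RNU4ATAC averaged 801 over 553 normalized counts and RNU12 1355 over 1043, numerator group first, as implied by the authors' deposited table. Their log2 changes were 0.54 (95% interval 0.31 to 0.76, DESeq2 adjusted p = 4.08e-05) for RNU4ATAC and 0.38 (0.15 to 0.61, DESeq2 adjusted p = 0.00845) for RNU12 per the authors' deposited table. RNU11 averaged 2315 over 1951, a log2 change of 0.25 that missed the threshold (0.03 to 0.46, DESeq2 adjusted p = 0.0836), and RNU6ATAC 58.02 over 61.98, a log2 change of -0.10 (-0.64 to 0.45, DESeq2 adjusted p = 0.854). Of all genes, 13.3% were called higher and 10.7% lower in new RNA with INTS1, and with a log2 size of 1 or more required 0 members and 4.5% of all genes were called higher. Among other snRNA rows 19 of 72 were called higher and 1 lower there, with a median log2 change of 0.21.

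In the INTS8 comparison of new RNA, 0 of the 4 members passed in the authors' DESeq2 test, and 1, RNU4ATAC, had an unadjusted p under 0.05. Of all genes, 6.56% were called higher and 2.87% lower there, and 2.15% were higher by a log2 size of 1 or more. Among other snRNA rows 12 of 67 were called higher and 1 lower, with a median log2 change of 0.09. RNU4ATAC again had the largest log2 change of the members, 0.33 (0.09 to 0.57, DESeq2 adjusted p = 0.0706 per the authors' deposited table). RNU12 had a log2 change of 0.17 (-0.07 to 0.40), RNU11 of 0.04 (-0.18 to 0.25) and RNU6ATAC of 0.11 (-0.40 to 0.61) per the authors' deposited table. INTS8 is another subunit of Integrator. Whether the effects of INTS1 and INTS8 on these genes differ was not tested.

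In new RNA the level per kb of RNU11 was 37.5 times that of RNU6ATAC in the numerator and 29.6 times in the denominator group of the INTS1 comparison. The same ratios were 19.6 and 14.1 for RNU12, and 13.4 and 8.64 for RNU4ATAC. In the INTS8 comparison the ratio of RNU11 was lower in the numerator group, 25.4 against 26.6. There the ratios were 17.3 and 16.6 for RNU12, and 12.7 and 10.9 for RNU4ATAC, numerator group first. These ratios of group means have no spread and were not tested. The order of the ratios, RNU11 over RNU12 over RNU4ATAC, was that of total RNA at 4 h and 12 h and in untreated INTS1-AID cells. In untreated Parental cells RNU12, with 4.08 ± 1.26, stood over RNU11, with 3.49 ± 0.96 (SD, n = 3), within their spread.

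Before any auxin, 3 of the 4 genes (RNU11, RNU4ATAC and RNU6ATAC) had higher values in every INTS1-AID library than in every Parental one. Yet 0 of the 4 passed limma's test. An unadjusted p under 0.05 was found for 3 by limma (RNU11, RNU12 and RNU6ATAC) and 1 by edgeR (RNU11). DESeq2 gave 3 (RNU12, RNU4ATAC and RNU6ATAC). By that unadjusted rule limma had 1200 genes higher and 1116 lower of the 13293 tested. Of the 13293 genes it tested, limma called 2.22% in either direction and 1.85% higher. The authors' adjusted p, by which 0 members passed too, called 3.52% of 14538 genes higher. Groups that do not overlap, with each INTS1-AID library higher, were found for 16.0% of the 13293 tested genes. Other snRNA rows leaned the same way, so this is not particular to the members. Of 40 tested, limma called 2 higher and 0 lower (16 and 0 at an unadjusted p under 0.05), with a median log2 difference of 0.54. Parental library 3 stood apart, with the lowest value of all 6 libraries for each of the 4 genes. RNU11 had normalized counts of 718, 813 and 777 in INTS1-AID libraries 1, 2 and 3, and of 471, 545 and 149 in Parental libraries 1, 2 and 3. The groups do not overlap, and Parental library 3 lies well below the other Parental libraries. On the log2 scale RNU11 was 1.19 higher in INTS1-AID cells (95% interval 0.18 to 2.19, limma adjusted p = 0.228).

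RNU4ATAC had normalized counts of 156, 164 and 135 in INTS1-AID libraries 1, 2 and 3, against 120, 117 and 31.5 in Parental libraries 1, 2 and 3. The last of these rests on 28 reads. The groups do not overlap, and the log2 difference was 0.97 (-0.11 to 2.06, limma adjusted p = 0.327).

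RNU6ATAC had 124, 165 and 166 normalized counts in INTS1-AID libraries 1, 2 and 3, against 119, 119 and 57.4 in Parental libraries 1, 2 and 3. INTS1-AID library 1 lies close to Parental libraries 1 and 2, and the log2 difference was 0.68 (0.01 to 1.36, limma adjusted p = 0.282).

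RNU12 had 491, 645 and 561 normalized counts in INTS1-AID libraries 1, 2 and 3, against 434, 524 and 375 in Parental libraries 1, 2 and 3. Its groups overlap, since Parental library 2 lies above INTS1-AID library 1, and the log2 difference was 0.35 (0.0011 to 0.71, limma adjusted p = 0.286).

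Of the tested genes, limma called 1.85% higher in INTS1-AID cells. For RNU11, RNU4ATAC and RNU6ATAC the exact two-sided permutation test over libraries gave p = 0.1, the smallest that 3 against 3 libraries allow, and for RNU12 exact p = 0.2.

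**Figure D3:**
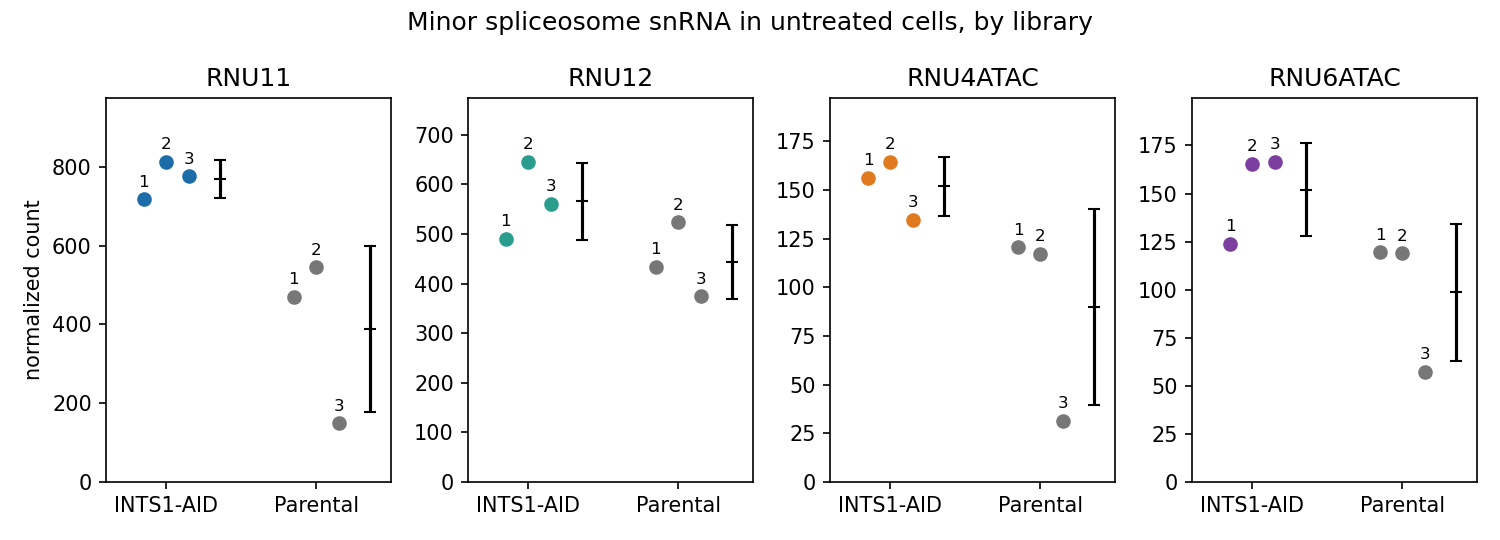
Normalized counts (vertical axis, from 0) of the 4 genes in the untreated INTS1-AID and Parental libraries, 1 point per library with its replicate number, and the mean with SD beside each group (n = 3 each). Parental library 3 is the lowest point of each panel, at 149, 375, 31.5 and 57.4.

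Parental library 3 was low for snRNA as a class. Relative to the mean of Parental libraries 1 and 2 its difference in log2(normalized count + 1) was -1.76 for RNU11, -1.88 for RNU4ATAC, -1.041 for RNU6ATAC and -0.35 for RNU12. The 40 other snRNA rows tested had a median of -0.60 on that scale, 32 of them below 0, and all 13293 genes one of 0.0071. Of 46 tested genes with transcripts of up to 200 bases, 43 are snRNA rows, so transcript length and gene class cannot be told apart here. Without this library the log2 differences between the lines were 0.60 for RNU11 (limma adjusted p = 6.65e-05), 0.35 for RNU4ATAC (0.0942), 0.34 for RNU6ATAC (0.140) and 0.24 for RNU12 (0.145), so 1 of the 4 passes, where 10.9% of all genes were called higher.

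**Figure D4:**
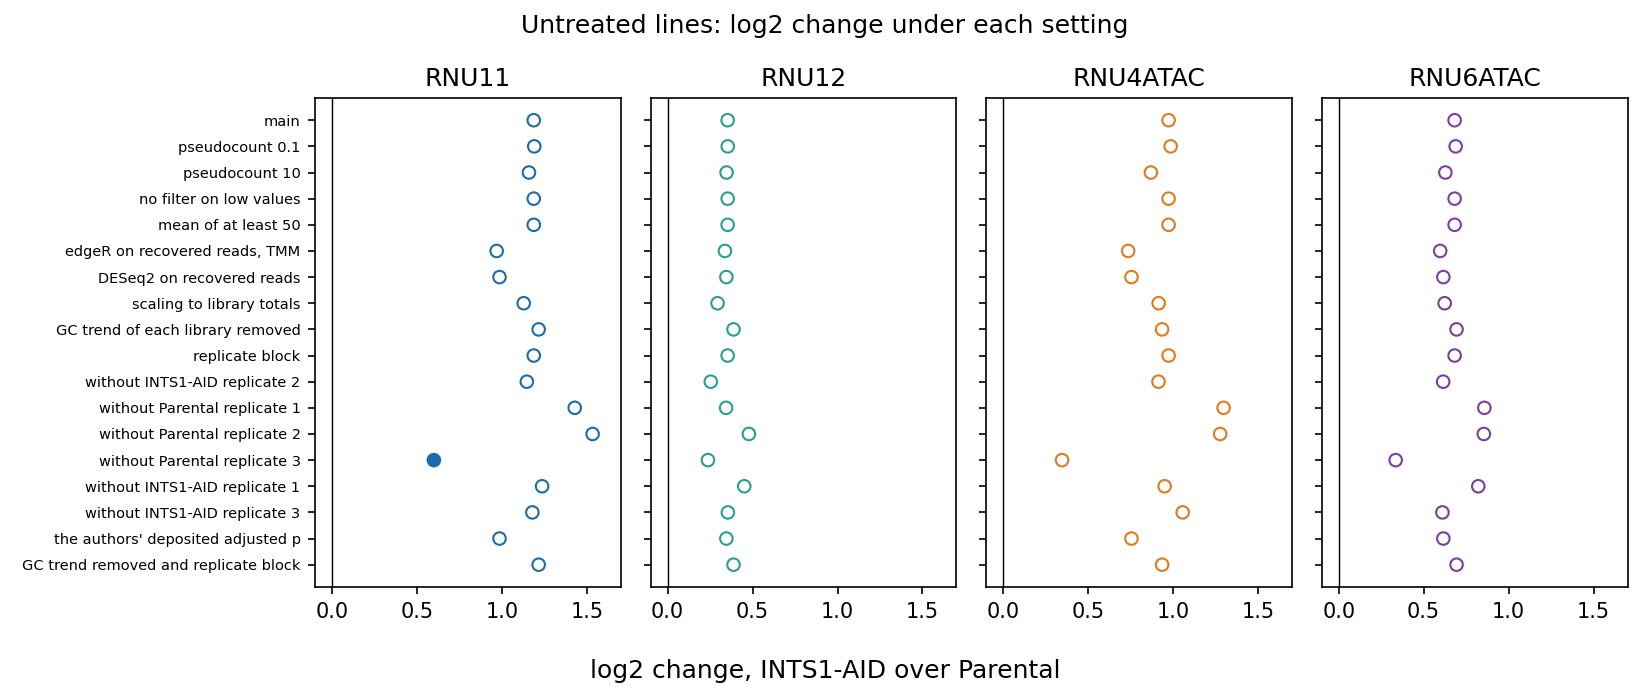
Log2 change of each gene between untreated INTS1-AID and Parental cells (horizontal axis) under each setting (rows), filled where the adjusted p is under 0.05. All values lie above 0, between 0.24 and 1.53, and the single filled point is RNU11 without Parental replicate 3, at 0.60.

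Per kb of transcript, RNU11 was the most abundant member in untreated INTS1-AID cells, with 5739 ± 359 normalized counts per kb (SD, n = 3). RNU12 followed with 3773 ± 515, and RNU6ATAC with 1206 ± 192 and RNU4ATAC with 1168 ± 118 did not differ beyond their spread. In Parental cells RNU12 had 2962 ± 500 and RNU11 2897 ± 1574 (SD, n = 3), which overlap, RNU6ATAC 782 ± 283 and RNU4ATAC 690 ± 388, which overlap too. In Parental library 3 alone the order was RNU12 with 2498, RNU11 with 1108, RNU6ATAC with 455 and RNU4ATAC with 242 normalized counts per kb. The level of RNU4ATAC was 0.99 ± 0.22 times that of its partner RNU6ATAC in INTS1-AID and 0.82 ± 0.25 times in Parental libraries (SD, n = 3 each). In INTS1-AID cells without auxin the ratio of group means was 1.78 in the 4 h series and 4.26 in the 12 h series. The ratio thus differed between library series, so it cannot be read as the proportion of the 2 RNAs in cells.

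The genes around the members differed in direction. LINC01715, a long noncoding RNA that ends 70 bases before RNU11 on the same strand, rose by 0.86 on the log2 scale at 4 h (DESeq2 adjusted p = 0.00950) and by 1.06 at 12 h (0.000521) per the authors' deposited table. CLASP1, which encodes a microtubule-binding protein and holds RNU4ATAC on its opposite strand, fell by 0.41 at 4 h (DESeq2 adjusted p = 2.09e-12) and by 1.12 at 12 h (3.20e-35) per the authors' deposited table. Reads of the 2 strands are told apart by the library type only if the counting used strand, and the sources used here do not say whether it did. POLDIP3, which starts 282 bases from RNU12 on the opposite strand, fell by 0.41 at 4 h (DESeq2 adjusted p = 1.21e-10) and had a log2 change of -0.19 at 12 h (0.181) per the authors' deposited table. WDR5, 4471 bases from RNU6ATAC on the opposite strand, had log2 changes of -0.03 and -0.0047 at 4 h and 12 h, and TAF12 and CYB5R3, also within 10 kb of a member, did not pass at either time per the authors' deposited table. No listed gene lies downstream of a member on its strand within 10 kb. The neighbours on the opposite strand and upstream were added after values were seen.

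Counts of called genes in the protein lists below stand beside 19.2% of all genes called higher and 19.2% lower at 4 h, and 21.9% higher and 22.3% lower at 12 h. Of 14 genes of proteins that serve the minor spliceosome, 2 rose and 1 fell at 4 h, and 5 rose and 2 fell at 12 h per the authors' deposited table, with median log2 changes of 0.0089 and 0.25, and at 4 h these shares lie below those of all genes. SNRNP25, a protein of the U11/U12 particle, rose by 0.33 at 4 h (DESeq2 adjusted p = 6.51e-07) and 0.88 at 12 h (6.31e-10) per the authors' deposited table. TXNL4B rose by 0.48 and 0.62 on the log2 scale, and CCDC84, also named CENATAC, fell by 0.37 and 0.47 at 4 h and 12 h per the authors' deposited table. In new RNA with INTS1, 3 of the 14 rose and 0 fell (3 and 0 at an unadjusted p under 0.05), beside 13.3% of all genes higher and 10.7% lower. With INTS8 0 passed DESeq2's test (1 higher at an unadjusted p under 0.05), beside 6.56% of all genes higher and 2.87% lower. At an unadjusted p under 0.05, 2474 of 13876 genes were higher and 2257 lower with INTS1. With INTS8 these were 1641 and 1155 of 13592.

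Of 10 factors of snRNA transcription, 3 rose and 5 fell at 4 h, and 2 rose and 2 fell at 12 h per the authors' deposited table, the last 2 counts near the shares of all genes. ZNF143, an activator of snRNA promoters, fell by 0.48 at 4 h (DESeq2 adjusted p = 2.56e-07) and had a log2 change of 0.28 at 12 h (0.0612). SNAPC2, a subunit of the complex that binds snRNA promoters, rose by 0.45 and 0.61 on the log2 scale at 4 h and 12 h, while ELL, an elongation factor, fell by 0.37 and 0.33 per the authors' deposited table.

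Among 20 factors of snRNP assembly and maturation, 1 rose and 5 fell at 4 h, and 5 rose and 3 fell at 12 h per the authors' deposited table. The 5 that fell at 4 h and the 5 that rose at 12 h are near the shares of all genes. SART3, which helps U4 and U6 RNAs to pair again after splicing, fell by 0.56 at 4 h (DESeq2 adjusted p = 3.18e-25) and 0.65 at 12 h (1.20e-08). PHAX, the export adaptor of Pol II snRNAs, fell by 0.38 and 0.49 on the log2 scale, and GEMIN7 of the SMN complex fell by 0.31 at 4 h and rose by 0.28 at 12 h per the authors' deposited table.

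Of 10 tri-snRNP proteins shared with the major spliceosome, 1 rose and 3 fell at 4 h, and 0 rose and 2 fell at 12 h by the authors' DESeq2 test (2 and 2 at an unadjusted p under 0.05), with the 2 that fell at 12 h near the share of all genes. PRPF6 fell by 0.30, SNRNP40 by 0.27 and PRPF31 by 0.19 on the log2 scale at 4 h per the authors' deposited table. Integrator subunits had 9 of 19 higher and 3 lower at 4 h, and 10 higher and 1 lower at 12 h per the authors' deposited table, and INTS6L, NABP1 and INTS6 had the largest log2 changes at 4 h, of 2.09, 2.09 and 1.85. Between the untreated lines limma called 0 of 14 minor spliceosome proteins (2 at an unadjusted p under 0.05), with a median log2 difference of 0.07.

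The genes whose 4 deposited log2 changes lay nearest to those of each member were sought among 12282 genes with a mean of at least 10 in each comparison. Nearest to RNU12 were LINC00324 (Euclidean distance 0.10 over the 4 comparisons), the variant U1 gene RNVU1-29 (0.28) and the U5 gene RNU5D-1 (0.29). RNU11 had AC016876.2 (0.16), RNVU1-21 (0.23) and TNFRSF10B (0.28), and RNU4ATAC had PTX3 (0.20) and RNF227 (0.21). For RNU6ATAC they were RNVU1-14 (0.21), TPPP (0.22) and H4-16 (0.29). Of the members, RNU12 and RNU4ATAC lay closest together (0.32), and RNU4ATAC and RNU6ATAC, whose RNAs act as a pair, farthest apart (1.12). The distances take no account of standard errors and were not tested. Those errors were the largest of the members for RNU6ATAC in each comparison, between 0.24 and 0.31.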

How the data were processed

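The members and gene lists were chosen with earlier results of these data known. Reads were processed with STAR 2.7.3a and DESeq2, per the submitters' processing notes, which also list hg38 and dm6. For the counting tool and annotation release, the sources used here name none. The signal values are normalized counts in which the authors divided the reads of each library by a factor: 100% of the deposited values were whole multiples of 1 step per library, within 0.001 reads, which gave back the reads. The authors deposited log2 changes and fold changes (a ratio) with p-values and −log10 adjusted p, and score columns that hold calls and rounded means, per the file headers. The table of the untreated lines has headers naming TTSeq, yet its fold changes follow its own counts.

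For the untreated lines, log2(normalized count + 1) of the 13293 genes with a mean of at least 10 was fitted with limma 3.58.1 (trend, robust, R 4.3.3), with Benjamini-Hochberg FDR 0.05, and exact permutation tests (scipy 1.17.1). Such a fold change understates that of low genes. The fit and the Wald test below were run on simulated data as a check of the code only. The simulated libraries held none that stands apart as Parental library 3 does, and the simulated Wald test took its standard errors as known. These runs therefore do not show how the tests perform on the present data. Among the alternatives, reads so recovered were tested with edgeR 4.0.16 and with DESeq2 1.42.0. For auxin the authors' adjusted p under 0.05 stands. Standard errors were those the p-values imply; on the table of the lines they differed from the listed ones by at most 5.42e-14 relative. The 12 h minus 4 h difference was tested with a two-sided Wald z test. A deposited expression column matched the group below the ratio at 4 h with 3 libraries over 2 (median error 0.0017 on the log2 scale, 486 genes), so the ratio is auxin over no auxin. At 12 h that column matched neither group, and the direction was taken as the same because log2 changes of both times correlate (Pearson's r = 0.85 across 10700 genes, which are not replicates). In new RNA with INTS8 it matched the group above the ratio, and with INTS1 the one below; that direction is as deposited too (r = 0.88 across 8414 genes). For GC content the longest GENCODE v29 transcript per gene was used. Named genes were the members, genes overlapping or downstream of them, the 3 nearest in log2 change (1 of them is not reported here), and at most 3 per list with the largest log2 change among those that passed at 4 h. A list of U12-type intron genes was not used here. Intervals are 95%.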

Additional observations from a re-analysis of the deposited data

Results flagged for a closer look

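The effect of auxin differed between 12 h and 4 h by a test of the difference itself for 3 of the 4 genes. The log2 change was larger at 12 h by 1.24 for RNU11, by 1.41 for RNU12 and by 1.11 for RNU4ATAC. Each time has its own series of libraries, with and without auxin, so time and series cannot be told apart.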

How the results depend on the processing

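Under the alternatives 0 values changed direction. Between the untreated lines 0 of 4 members passed under each pseudocount, filter, count model and scaling, with the GC trend removed, with an FDR of 0.01, and by the authors' adjusted p. With each library left out in turn, log2 differences ranged from 0.60 to 1.53 for RNU11, 0.24 to 0.48 for RNU12, 0.35 to 1.30 for RNU4ATAC and 0.34 to 0.86 for RNU6ATAC, and 0 to 1 members passed; RNU11 passed without Parental replicate 3 (limma adjusted p = 6.65e-05; 0.105 to 0.563 without others). The cause was not tested. The count over all genes was 295, against 2432 there, 1, 3 and 4 without INTS1-AID replicates 1, 2 and 3, 1 without Parental replicate 1, 806 by DESeq2 and by the authors' adjusted p, 1207 with the GC trend removed and 11 at an FDR of 0.01. Replicate numbers did not pair the libraries (correlations of deviations -0.07, 0.0040 and -0.11): with the replicate block RNU11 was 1.19, RNU12 0.35, RNU4ATAC 0.97 and RNU6ATAC 0.68, 0 members passed, and 6 genes in all; with GC correction and block together, chosen after seeing the data, 0 members and 461 genes. Of the auxin calls at 4 h, RNU12 (0.61) was lost at an adjusted p under 0.01, and with a log2 change of at least 1 RNU11 (0.41), RNU12 (0.61) and RNU4ATAC (0.81) were lost, leaving 0 members, as in new RNA with INTS1 RNU12 (0.38) and RNU4ATAC (0.54), leaving 0. Subtraction of the median of all genes changed 0 directions, and the calls were not tested again after it. Leaving out libraries of the auxin comparisons was not run, since only comparison values were used. RNU4ATAC in Parental library 3 rests on 28 reads, and the depth of the auxin libraries is unknown.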
